A study of Homo sapiens with 3 samples.

Results

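Lysine is broken down in mitochondria by a short chain of enzymes, and its trimethylated form, released when proteins are degraded, is the starting material of carnitine. The genes described here are the 9 of these 2 routes named AASS, ALDH7A1, AADAT, DHTKD1, DLST, GCDH, PIPOX, SLC25A21 and TMLHE. The 9 genes were chosen with earlier results of these data known. Their probe sets were taken by name, not by signal, as every probe set whose symbol in the platform annotation was exactly 1 of these 9. A probe set is a group of short probes that together read 1 stretch of transcript. The rule found all 9 genes, of 19775 genes read by a probe set naming 1 gene, with 16 probe sets in all.

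RNA came from khES3 cells, a line of human embryonic stem cells, harvested undifferentiated after 5 hours in medium lacking leucine, in medium lacking lysine, or in complete medium. The labels give no genetic change, no other agent and no difference between the 3 conditions other than the medium. Each condition had 1 Affymetrix array, so no difference below has a replicate check, an error between cultures or a p-value. The deposited values are signal intensities on a linear scale.

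In the breakdown route, AASS encodes a bifunctional enzyme that joins lysine to 2-oxoglutarate and then splits the product, saccharopine, to give a semialdehyde. ALDH7A1 oxidises this semialdehyde to aminoadipate, AADAT removes its amino group to leave 2-oxoadipate, and DHTKD1 with DLST turn 2-oxoadipate into glutaryl-CoA, which GCDH carries on to crotonyl-CoA. PIPOX is a peroxisomal oxidase that acts on pipecolate, the product of a side route from lysine, and SLC25A21 is a mitochondrial carrier of 2-oxoadipate. TMLHE hydroxylates trimethyllysine in the opening step of carnitine synthesis. Liver and kidney are the tissues best known for the breakdown route.

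AASS and SLC25A21 were the only 2 of the 9 genes with a probe set at least 2-fold apart in any of the 3 comparisons, so the stretch of genome around their start sites is printed here. Each window runs from 250 bases before to 50 after the start in RefSeq (GRCh38.p14), and all 9 genes matched at least 1 such window. For AASS it is chr7:122144200-122144499 on the minus strand, and for SLC25A21 it is chr14:37172557-37172856 on the minus strand. Capitals mark TGACGT, the core of the element bound by CREB and ATF family factors.
AASS: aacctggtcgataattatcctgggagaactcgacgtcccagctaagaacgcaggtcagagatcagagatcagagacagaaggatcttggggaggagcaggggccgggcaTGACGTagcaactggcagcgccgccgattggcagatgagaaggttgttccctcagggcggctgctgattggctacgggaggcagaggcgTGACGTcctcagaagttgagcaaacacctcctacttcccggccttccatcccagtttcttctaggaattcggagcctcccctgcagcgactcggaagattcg
SLC25A21: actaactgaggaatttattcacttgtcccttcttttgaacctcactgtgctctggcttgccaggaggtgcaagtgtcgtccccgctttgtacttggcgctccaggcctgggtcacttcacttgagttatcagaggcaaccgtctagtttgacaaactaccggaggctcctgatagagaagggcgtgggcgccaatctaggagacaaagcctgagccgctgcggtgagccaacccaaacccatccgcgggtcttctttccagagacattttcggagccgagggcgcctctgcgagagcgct

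The AASS window holds TGACGT at 2 places, 141 and 52 bases before the start, and no window of the other 8 genes holds it on either strand. Of all 35116 RefSeq windows of this length, 7.98% hold it. This motif was added after the sequences were seen. TGATGNAA, the core of the composite element of ATF4 and C/EBP factors, is in none of the 12 windows of the 9 genes on either strand, and 3.62% of all windows hold it. CACGTG, the E-box, is likewise in none of the 12, against 7.26% of all windows. These matches describe letters only and carry no reading about any factor.

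Signals below an array's 40th percentile were set to that value before taking log2, and a gene was read by its brightest probe set among those at or above the median level over the 3 arrays. All 9 genes and all 16 of their probe sets passed this level filter and lay above the floor on all 3 arrays. Differences are on the log2 scale, so that 2-fold is 1. With no replicates, the error given is how far the 2 brightest probe sets of a gene disagree, given here as the SD over genes of the difference between them, once for each comparison and in 3 equal classes of level. It was 0.54 after leucine removal (5617 genes) and 0.63 after lysine removal (5520 genes), each over complete medium, and 0.63 between the deprived arrays (5483 genes). This SD leaves out the spread between cultures.

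Over all genes above the floor on both arrays, 4.09% were at least 2-fold apart after leucine removal (327 higher and 176 lower), 6.17% after lysine removal (516 higher and 239 lower) and 4.74% between the lysine- and leucine-deprived arrays (342 higher and 236 lower). With the arrays centred on their medians these splits were 205 higher and 267 lower after leucine removal, 259 and 584 after lysine removal, and 249 and 361 between the deprived arrays. After quantile normalization they were 445 higher and 323 lower after lysine removal and 294 and 323 between the deprived arrays. The stress response genes ASNS, TRIB3, DDIT3 and CHAC1 were all at least 2-fold higher on each deprived array than in complete medium. Markers of undifferentiated stem cells were bright (9 of 10 measured), with a summed signal of 233495 after leucine removal and 230554 after lysine removal, against 218901 in complete medium. Fibroblast markers were also detected, with 5 of 8 measured and a summed signal of 25503 after leucine removal and 29433 after lysine removal, against 27960 in complete medium. The 5 measured were COL1A1, COL1A2, THY1, POSTN and DCN, and LUM, PDGFRB and COL3A1 did not pass the level filter. Most of the sum came from COL1A1 and THY1, with 13187 and 8348 after leucine removal. None of the 5 is shown here to be particular to fibroblasts. The 5 did not move together. After lysine removal 3 stood above complete medium and 2 below, with COL1A1 at 0.69 and THY1 at -0.76 in their brightest probe sets. Their kept probe sets spread over both sides of 0, from -0.26 to 1.46 for COL1A1 and from -0.76 to 0.04 for THY1. DCN was below the floor without leucine, with a signal of 12.5. Mesoderm markers were dim but higher when deprived (3 of 4 measured, MIXL1 not passing). Their summed signal was 416 without leucine and 709 without lysine, against 248 in complete medium. TBXT alone gave 454 without lysine, and MESP1 was below the floor in complete medium, at 13.8. Endoderm markers (3 of 4 measured, FOXA2 not passing) summed to 380 without leucine and 503 without lysine, against 504 in complete medium. For neural ectoderm (2 of 4, NES and OTX2, with PAX6 and SOX1 not passing) the sums were 5610, 5874 and 5540 in that order. NES alone gave 4187, 3818 and 4232. KRT7, the only trophoblast marker measured, gave 172, 211 and 158. The 3′ end of ACTB gave 7.55 times the signal of its 5′ end without leucine and 11.2 times without lysine, against 5.44 in complete medium. For GAPDH this ratio was 1.23 without leucine and 1.25 without lysine, against 1.08 in complete medium. Whether RNA quality or cells of another type have a part in the differences below was not tested. In RNA from whole cultures, fewer cells that express a gene and less of its RNA per cell cannot be told apart.

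The first comparison asks how the 9 genes stood after leucine removal. None of them was 2-fold higher or lower than in complete medium, against 2.66% of all genes higher and 1.43% lower. The median difference of the 9 was 0.02, beside 0.01 over all genes, and 5 lay above 0 and 4 below. With the arrays centred on their medians these became -0.11 for the 9 and -0.12 for all genes, with 3 above 0 and 6 below. Their median absolute difference was 0.16, against 0.24 over all genes. AASS stood farthest from 0 at -0.60, which is 1.51-fold lower, and SLC25A21 highest at 0.30.

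After lysine removal, 1 of the 9, SLC25A21, was at least 2-fold higher than in complete medium (11.1%, beside 4.22% of all genes past 2-fold in that direction) and none was 2-fold lower (1.95% of all genes). This share rests on 1 gene, and nothing is read from it against that background. The median difference of the 9 was 0.09, against 0.00 over all genes, with 6 above 0 and 3 below, and with median centring -0.16 against -0.24, with 3 above 0 and 6 below. AASS (0.78) and TMLHE (0.56) came next, and the other 6 lay between -0.24 and 0.16. The 2 comparisons over complete medium share the complete-medium array, so their values stand side by side here and are not set against each other.

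Lysine-deprived over leucine-deprived is the comparison that leaves the complete-medium array out. Here 2 of the 9 were at least 2-fold higher, AASS 2.60-fold (1.38 on the log2 scale) and SLC25A21 2.00-fold, beside 2.8% of all genes in that direction. With median centring or quantile normalization SLC25A21 fell short of 2-fold here (0.88 and 0.91). None was 2-fold lower, against 1.93% of all genes. TMLHE stood at 0.72 and AADAT at -0.46, and the other 5 lay between -0.24 and 0.06. The median of the 9 was 0.04, against -0.02 over all genes, and with median centring -0.07 against -0.13. The AASS value belongs to 1 of its 2 probe sets, as described next, and SLC25A21 was just at the 2-fold line.

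**Figure D1:**
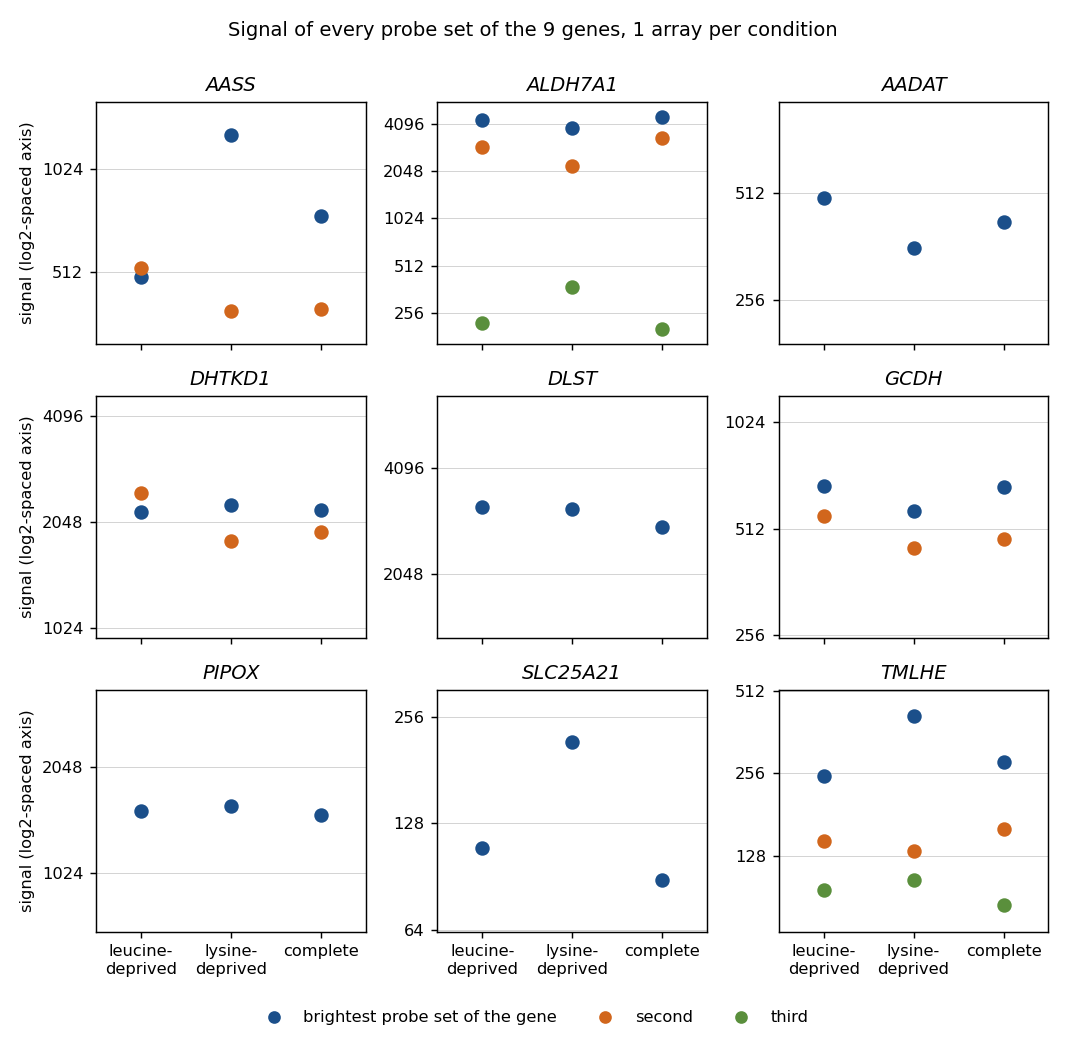
Signal of each probe set (vertical axis, deposited intensity, log2-spaced, scaled separately for each gene) on the leucine-deprived, lysine-deprived and complete-medium arrays, with 1 point per array and colours for the probe sets of a gene in order of brightness. The brightest AASS and TMLHE probe sets and the SLC25A21 probe set are highest on the lysine-deprived array, and the second AASS probe set is not.

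AASS, the entry enzyme, was read by 2 probe sets that went different ways. The brighter one had a signal of 493 after leucine removal and 1283 after lysine removal, against 745 in complete medium. The second had 525 after leucine removal and 394 after lysine removal, against 398 in complete medium. So the brighter probe set was highest without lysine and lowest without leucine, whereas the second was highest without leucine and near its complete-medium value without lysine. In differences, the second probe set stood at 0.40 after leucine removal and -0.02 after lysine removal, both over complete medium, and at -0.42 between the deprived arrays. The probe sets were 1.80 apart in the last comparison, and of the 3437 genes with 2 kept probe sets 5.21% were at least as far apart. For genes of like level (the middle class) the SD between probe sets was 0.58 in that comparison, and the mean of the 2 AASS probe sets was 0.48.

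SLC25A21, the 2-oxoadipate carrier, was dim, at percentile 14.3 of level among kept genes, and rests on 1 probe set. Its signal was 109 after leucine removal and 218 after lysine removal, against 88.5 in complete medium, where the floor was 54.6. The lysine-deprived value was 2.46-fold that of complete medium and 2.00-fold that of the leucine-deprived array. Of all genes above the floor on both arrays, 2.47% were at least as far from 0 as its 1.30 for lysine-deprived over complete, and 4.71% were at least 2.00-fold apart, as it was, between the deprived arrays. No second probe set checks these values, and the SD between probe sets of genes in the lowest level class was 0.80 in each of these comparisons.

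TMLHE, the trimethyllysine hydroxylase, had 3 probe sets, and they did not share 1 order of the arrays. The brightest gave 251 after leucine removal and 413 after lysine removal, against 281 in complete medium. The second gave 145 after leucine removal and 133 after lysine removal, against 160 in complete medium. The third gave 96.2 after leucine removal and 105 after lysine removal, against 84.8 in complete medium. After lysine removal the brightest (0.56) and the third (0.31) were above complete medium and the second (-0.26) below it. All 3 values are smaller than the SD of 0.80 between probe sets of dim genes in that comparison.

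ALDH7A1, which oxidises the semialdehyde made by AASS, also had 3 probe sets, of which the 2 brightest ran the same way. The brightest gave 4349 after leucine removal and 3865 after lysine removal, against 4506 in complete medium. The second gave 2913 after leucine removal and 2192 after lysine removal, against 3339 in complete medium. Both were lowest without lysine, by -0.22 and -0.61 against complete medium. The third and dimmest gave 223 after leucine removal and 373 after lysine removal, against 204 in complete medium, and was highest without lysine (0.87). Its 3 probe sets were 1.48 apart for lysine-deprived over complete, and 15.6% of the 1543 genes with 3 kept probe sets were at least as far apart. The SD between the 2 brightest probe sets of genes as bright as ALDH7A1 was 0.47 in that comparison.

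AADAT, the aminoadipate transaminase, was read by 1 probe set, with 496 after leucine removal and 360 after lysine removal, against 425 in complete medium. It was lowest without lysine and highest without leucine, and the whole range was 0.46 on the log2 scale. Of all genes above the floor on both arrays, 24.9% were at least as far from 0 between the deprived arrays.

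DHTKD1 and DLST together form the 2-oxoadipate dehydrogenase, with DHTKD1 as the decarboxylating subunit and DLST as the acyl-transferring one, which the 2-oxoglutarate dehydrogenase uses too. The brighter DHTKD1 probe set had 2193 after leucine removal and 2284 after lysine removal, against 2217 in complete medium. The other had 2476 after leucine removal and 1812 after lysine removal, against 1919 in complete medium. DLST had 3175 after leucine removal and 3134 after lysine removal, against 2797 in complete medium. The brighter DHTKD1 probe set was within 0.06 of itself across the 3 arrays, the other stood at 0.37 for leucine-deprived over complete, and DLST was 0.18 above complete medium after leucine and 0.16 after lysine removal, which became -0.08 with median centring. All are smaller than the SD of 0.36 (leucine) and 0.47 (lysine) between probe sets of genes in the highest level class, except the 0.37 of the second DHTKD1 probe set.

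GCDH, the glutaryl-CoA dehydrogenase, was the only 1 of the 5 genes with several probe sets whose probe sets differed in the same direction in each comparison, except that for leucine-deprived over complete they split to -0.11 and 0.09 with median centring and to -0.00 and 0.20 with quantile normalization. Its brighter probe set had 678 after leucine removal and 573 after lysine removal, against 670 in complete medium. The other had 558 after leucine removal and 451 after lysine removal, against 479 in complete medium. Both were lowest without lysine, at -0.24 and -0.31 relative to the leucine-deprived array and at -0.23 and -0.09 relative to complete medium. Between the deprived arrays 50.6% of genes were at least as far from 0 as its brighter probe set. PIPOX, the peroxisomal oxidase, gave 1536 after leucine removal and 1584 after lysine removal, against 1492 in complete medium, and none of its 3 differences was over 0.09. With median centring it lay below complete medium on both deprived arrays, at -0.09 without leucine and -0.16 without lysine.

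**Figure D2:**
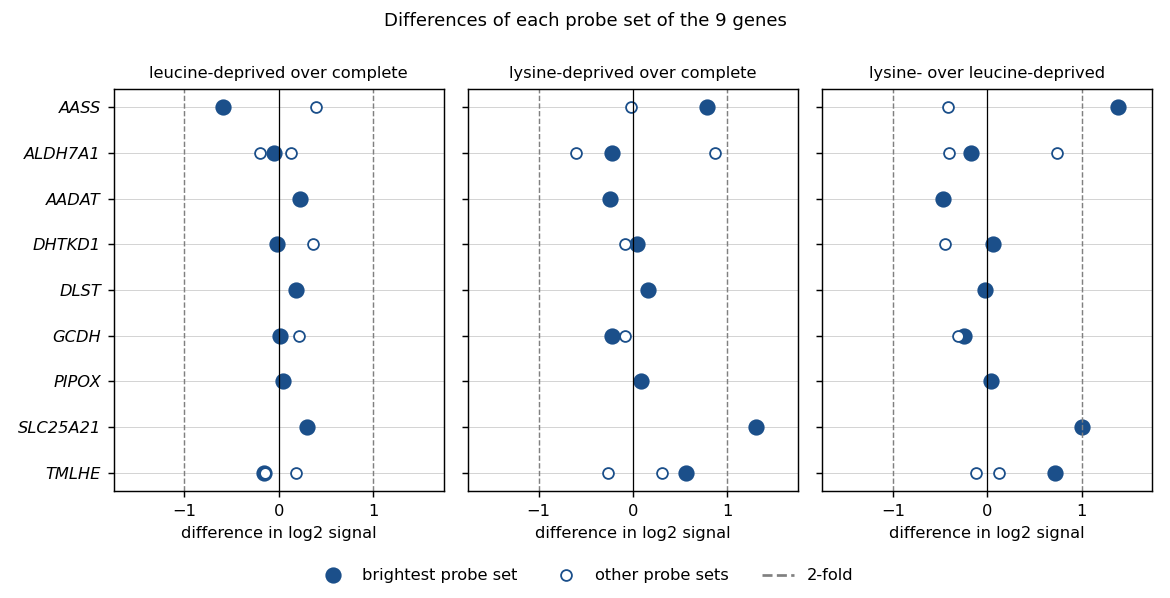
Difference in log2 signal (horizontal axis) of each probe set of the 9 genes in the 3 comparisons, with filled points for the brightest probe set, open points for the others and dashed lines at 2-fold. Most points lie within 0.5 of 0, and the probe sets of AASS, ALDH7A1 and TMLHE fall on both sides of 0 after lysine removal.

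Counted over probe sets, 10 of the 16 were above complete medium after leucine removal and 8 of 16 after lysine removal, which became 8 and 5 with median centring. Among all genes with several kept probe sets, 44.6% had all of them on 1 side of 0 after leucine removal, 44.3% after lysine removal and 39.2% between the deprived arrays. Among the 9 genes this held for 1 of 5 in each comparison, which was GCDH each time with the arrays as deposited.

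The genes whose differences over complete medium were most like those of SLC25A21, the member with the largest mean absolute difference, were UCN3, SMIM10 and IGLC1. Likeness was the Euclidean distance in the 2 differences, 0.02 for UCN3 and 0.04 for SMIM10 and IGLC1, among 11913 genes above the floor on all 3 arrays. Over 3 arrays 12 genes lay within 0.1 of it, and all 3 named genes were dim, with signals of 73.8 to 115 in complete medium.

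Genes that work beside the 9 were read in the same way. Of the 2-oxo acid dehydrogenase partners, DLD, the shared lipoamide dehydrogenase, stood at 0.21 after leucine and 0.03 after lysine removal. OGDHL, a brain-enriched form of the 2-oxoglutarate-specific subunit, was 2-fold lower after lysine removal (-1.34) and stood at -0.23 after leucine removal, on 1 probe set. OGDH, the main form of that subunit, was at the floor on the leucine-deprived array in its brightest probe set, with a bound of -1.70, but its other kept probe set stood at 0.19. After lysine removal the same 2 probe sets stood at -0.06 and -1.30.

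Downstream of glutaryl-CoA, and in the flavoprotein chain that takes electrons from GCDH, none of 10 genes was 2-fold apart on either deprived array. Over all genes 4.09% were 2-fold apart after leucine removal and 6.17% after lysine removal, and nothing is read from so small a count. ETFDH, the oxidoreductase that passes these electrons to ubiquinone, stood at 0.67 after leucine and 0.77 after lysine removal, with its other probe set at 0.85 after leucine and 0.52 after lysine removal. SUGCT, which adds CoA to free glutarate, stood at 0.42 after leucine and 0.98 after lysine removal on 1 probe set. SIRT5, a deacylase that removes glutaryl groups from proteins, stood at 0.40 after leucine and 0.54 after lysine removal. A second SIRT5 probe set was at -0.86 after lysine removal. ACAT1, the mitochondrial thiolase at the end of the route, stood at 0.05 after leucine and -0.44 after lysine removal. The list medians were 0.04 after leucine and -0.01 after lysine removal, and with median centring -0.09 and -0.26.

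Of the side routes, HYKK, the hydroxylysine kinase, was at the floor without lysine, with a bound of -1.45 against complete medium, and stood at 0.09 without leucine. PHYKPL, the phospholyase that acts after it, stood at 0.47 after leucine and 0.33 after lysine removal, with its 3 kept probe sets spread from -0.24 to 2.10 after leucine removal. CRYM, a reductase of the pipecolate route, stood at -0.23 after leucine and -0.10 after lysine removal. HYKK and CRYM each rest on 1 probe set.

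Of 7 genes of carnitine synthesis and use, 6 had a kept probe set. In its brightest probe set, above the floor on both arrays, none was 2-fold apart after leucine removal (4.09% of all genes) or lysine removal (6.17%). BBOX1, the last enzyme of carnitine synthesis, did not pass the level filter. ALDH9A1, the aldehyde dehydrogenase between TMLHE and BBOX1, stood at 0.11 after leucine and -0.26 after lysine removal. SLC22A5, the carnitine importer, stood at -0.26 after leucine removal and was at the floor after lysine removal, with a bound of -1.62. CPT1A and CPT2, which load and unload fatty acids on carnitine, stood at 0.39 and 0.37 after leucine removal and at 0.57 and 0.65 after lysine removal. Other kept probe sets of both lay below 0. Over 4 kept probe sets the lowest CPT1A value was -1.55 after leucine and -0.57 after lysine removal. The other CPT2 probe set stood at -0.34 after leucine and -0.31 after lysine removal.

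Of the 9 genes that carry lysine or charge its tRNA, 1 was at least 2-fold higher after leucine removal (2.66% of all genes) and 2 after lysine removal (4.22% of all genes), and none was 2-fold lower. With median centring no gene of this list passed 2-fold after lysine removal. SLC7A1, the cationic amino acid importer, was 2.32-fold higher after leucine and 2.17-fold higher after lysine removal, with a signal of 13640 after leucine and 12771 after lysine removal, against 5885 in complete medium. SLC7A7, a light chain of a cationic amino acid exchanger, was 1.84-fold higher after leucine and 2.29-fold higher after lysine removal. SLC3A2, its heavy chain, was 1.84-fold higher after leucine and 1.78-fold higher after lysine removal. Over its 3 kept probe sets the lowest SLC7A1 value was 0.96 after leucine removal, and the lowest after lysine removal, in another probe set, was -0.04. SLC66A1, the lysosomal exporter of cationic amino acids, stood at 0.49 after leucine and 0.95 after lysine removal. Its 3 kept probe sets spread from -0.44 to 1.38 after leucine removal and from 0.95 to 1.11 after lysine removal. KARS1, the lysyl-tRNA synthetase, stood at 0.09 after leucine and -0.03 after lysine removal. The list median was 0.32 after leucine and 0.25 after lysine removal, and with median centring 0.18 and 0.00.

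Of 9 protein lysine methyltransferases that make trimethyllysine, 6 had a kept probe set. EEF1AKMT1, which methylates an elongation factor, was 2-fold lower after lysine removal (-1.13) and stood at -0.49 after leucine removal. EEF1AKMT3, of the same substrate, was at the floor in complete medium, with a bound of 1.66 after leucine and 1.37 after lysine removal. VCPKMT, which methylates the ATPase VCP, stood at -0.33 after leucine and -0.56 after lysine removal. ETFBKMT, which methylates the electron transfer flavoprotein, stood at 0.25 after leucine and -0.46 after lysine removal. It was dim, with a signal of 66.5 on the lysine-deprived array, where the floor was 62.4. EEF1AKMT1, EEF1AKMT3, VCPKMT and ETFBKMT each rest on 1 kept probe set. The list median was 0.01 after leucine and -0.25 after lysine removal, and with median centring -0.12 and -0.50. Median centring put the median of all genes at -0.12 after leucine and -0.24 after lysine removal. With a 60th percentile floor the list median after lysine removal was 0.06, beside 0.14 over all genes, so its sign depends on the floor.

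The breakdown of leucine and its branched-chain relatives is the other essential amino acid route set beside it. Of its 14 genes 12 had a kept probe set. In its brightest probe set none was 2-fold apart after leucine removal (4.09% of all genes) or lysine removal (6.17%), each over complete medium. The median difference was 0.01 after leucine and 0.08 after lysine removal, where the 9 lysine genes had 0.02 and 0.09, and with median centring -0.12 and -0.16. PPM1K, the phosphatase that activates the branched-chain dehydrogenase, stood at 0.55 after leucine and 0.65 after lysine removal. MCCC1, a carboxylase subunit of leucine breakdown, stood at 0.55 after leucine and 0.21 after lysine removal. BCAT2, the mitochondrial transaminase, stood at -0.68 after leucine and 0.32 after lysine removal. It was 2.00-fold higher on the lysine- than on the leucine-deprived array, on 1 kept probe set, and with median centring the difference was 0.88. BCKDHB, a subunit of the dehydrogenase, stood at -0.08 after leucine and -0.60 after lysine removal, and its other kept probe set at 0.76 and -0.23. The 3 kept PPM1K probe sets spread from 0.44 to 1.86 after leucine and from 0.65 to 1.29 after lysine removal. Those of DBT, 5 in all, spread from -1.02 to 0.82 after leucine and from -1.33 to 0.38 after lysine removal.

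**Figure D3:**
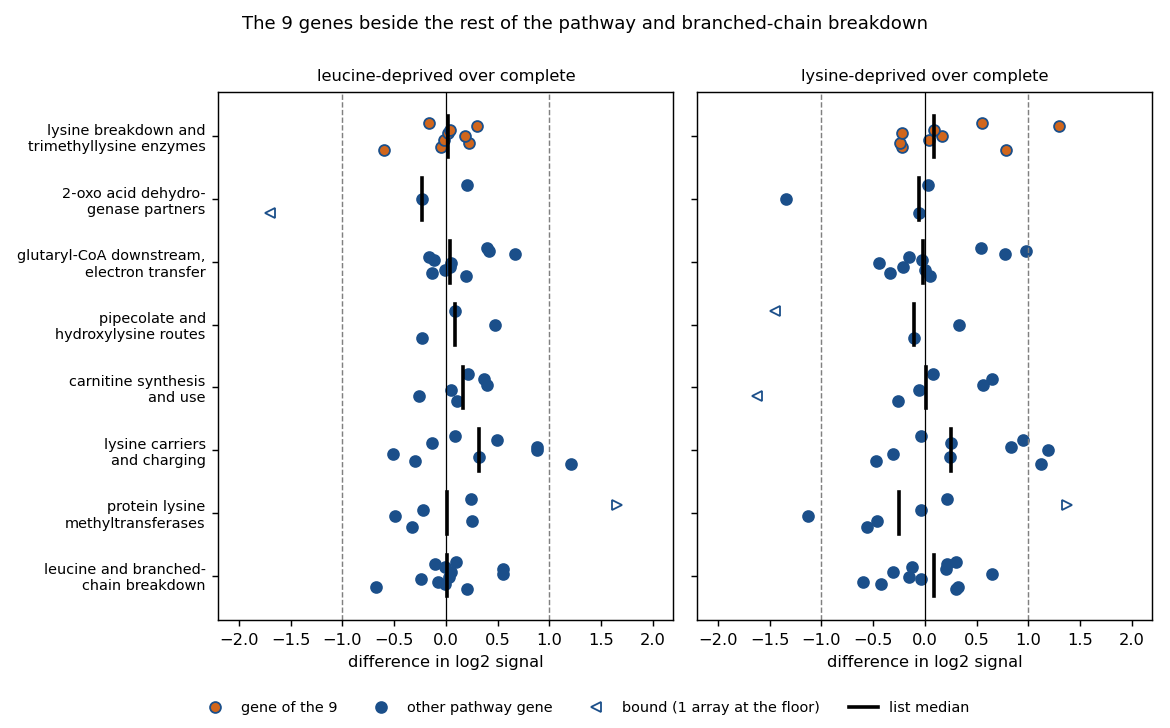
Difference in log2 signal (horizontal axis) of each gene over complete medium after leucine removal (left) and lysine removal (right), by list, with black bars at the list medians, dashed lines at 2-fold and open triangles for bounds. The 9 lysine genes centre near 0, SLC25A21 stands at 1.30 after lysine removal, and the lysine carriers have the highest list medians in both panels.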

How the data were processed

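Total RNA was purified on columns and 100 ng was turned into biotinylated cRNA, per the labels' protocols. The authors deposited signal intensity per probe set, made with MAS5 per the submitters' processing notes; neither version nor settings is given in the sources used here. The mean of each array after trimming 2% at either end was 500.1, so arrays had been scaled alike, which hides any difference in total mRNA. Of 54675 probe sets 62 are controls. Of the rest, 41091 name 1 gene in the platform annotation and 23055 of these, for 12961 genes, passed the level filter.

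The floor was 56.7 without leucine and 62.4 without lysine, against 54.6 in complete medium. A gene at the floor on 1 array is given as a bound. The named genes were all 9 members and, of each list, up to 4 with the largest mean absolute difference over complete medium. The 9 members and the lists were chosen with earlier results of these data known. With 1 array per condition no test was possible, and the number of arrays limits the precision. Alternatives were median centring, quantile normalization, other floors and level filters, the mean over probe sets, omitting the _x_at and _s_at probe sets, and other folds. The calculations were tested on simulated data. Python 3.11.15, numpy 2.4.6, pandas 2.3.3 and scipy 1.17.1 were used.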

Additional observations from a re-analysis of the deposited data

How the results depend on the processing

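No paired analysis was possible because each condition has 1 array. After leucine removal the count of 0 genes past 2-fold held under each alternative except a 1.5-fold threshold, which counted 1. After lysine removal the count of 1 became 0 with a 60th percentile floor, the level filter at the 70th percentile or a 3-fold threshold, and 2 at 1.5-fold. Between the lysine- and leucine-deprived arrays the count of 2 became 1 under median centring, quantile normalization, the 60th percentile floor, log2(value + 32) without a floor, the 70th percentile filter and the mean over probe sets, 0 at 3-fold and 3 at 1.5-fold. The filter at the 70th percentile leaves 8 of the 9 genes, and SLC25A21 is the one it drops. Median centring moved the median of all genes to -0.12 (leucine-deprived over complete), -0.24 (lysine-deprived over complete) and -0.13 (lysine- over leucine-deprived). The medians of the 9 genes over complete medium fell below 0 with median centring (-0.11 without leucine and -0.16 without lysine) and without the _x_at and _s_at probe sets (-0.02 without leucine and -0.23 without lysine), and quantile normalization put the leucine value at -0.00. The AASS value for lysine- over leucine-deprived ranged from 0.48 to 1.41. That of SLC25A21 for lysine-deprived over complete ranged from 0.71 to 1.30. The 0.71 is a bound, since with the 60th percentile floor its complete-medium signal was at the floor. Neither of these AASS and SLC25A21 values changed sign. But no alternative read the second AASS probe set alone, which stood at -0.42, and SLC25A21 has 1 probe set. The alternatives therefore could not check either sign against another probe set. TMLHE ranged from -0.26 to 0.56 for lysine-deprived over complete, below 0 only without the shared probe sets. SLC25A21 was dim, and no second probe set reads it.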

Other observations

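Probe sets named for antisense transcripts of the 9 genes were dim. The SLC25A21-AS1 probe set had signals of 98.4 after leucine removal and 82.1 after lysine removal, against 67.2 in complete medium, and did not pass the level filter. A probe set shared by TMLHE-AS1 and another transcript had 3.52 after leucine removal and 7.19 after lysine removal, against 8.18 in complete medium, all below the floor.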
